A study of Mus musculus with 6 samples.

Results

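The 10 genes described here encode the enzymes that desaturate, elongate and hydroxylate fatty acids: Fa2h, the front-end desaturase family genes Fads1, Fads2 and Fads3, the stearoyl-CoA desaturase genes Scd1 and Scd2, and the elongase genes Elovl1, Elovl5, Elovl6 and Elovl7. They were taken by symbol, and all 10 were found among the 55809 gene rows of the count tables. They were chosen by the measured difference between stressed and control offspring in these same libraries, as well as by function, so that difference is given for them as a description and is not a test of it. The cells were mast cells from the skin of C57BL6J mouse fetuses at embryonic day 18.5, sorted as positive for CD45, CD117 (KIT) and ST2 and negative for the macrophage markers F4/80 and CD64, with both sexes used. Dams of the prenatal stress group were restrained in drilled transparent tubes beneath a bright lamp, in 3 sessions of 30 minutes on each day. The stress ran from embryonic day 13 to 18 in the treatment protocol and from 13.5 to 18.5 in the design text. The dams of the control group were not disturbed. Each group had 3 libraries of polyadenylated RNA, each made by pooling 4 mice, so that 12 mice stood behind a group. The labels do not say how many litters a pool held, so the errors below measure the spread between pools.

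Fatty acids are built as saturated chains and then tailored in the endoplasmic reticulum. SCD enzymes place the first double bond in a saturated chain, and their monounsaturated products go into membrane lipids and stored fat. FADS1 and FADS2 add further double bonds to dietary essential fatty acids, with ELOVL5 lengthening the chain between their steps, and this route ends in arachidonic acid, from which mast cells make prostaglandins and leukotrienes when activated. ELOVL1, ELOVL6 and ELOVL7 lengthen saturated and monounsaturated chains. FA2H hydroxylates the carbon next to the carboxyl group of the fatty acids used in ceramides, and is best known from myelin and skin.

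The libraries held 51710555 to 74735139 counts assigned to genes. Levels are in CPM, the read count relative to the TMM-scaled library total, and groups are given as mean ± SD over 3 pools. A log2 fold change above 0 means a higher level after prenatal stress. Of the 11 mast cell markers checked, all were measured, and their summed level was 58791 to 71036 CPM in the controls and 85122 to 102540 in the stress libraries. Macrophage markers were present in every library although the sort excluded such cells. The sum of 16 of them was 8967, 10260 and 10130 CPM in control replicates 1, 2 and 3, and 7173, 6554 and 10525 in stress replicates 1, 2 and 3, so stress replicate 3 was at the control level. Stress replicate 1 stood apart in sex make-up, where the log2 ratio of Y-linked counts to those of Xist was 2.80, against -3.27 to -1.32 in the other libraries. In bulk libraries, fewer cells of a type and less RNA per cell cannot be told apart.

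RefSeq promoter windows (build GRCm38.p6, from 250 bases before to 50 after the annotated start) were matched for 6 of the 10 genes. The windows of Fads2 and its neighbour Fads3, whose levels were lower in the stress group mean, and of Elovl7 and Elovl5, whose levels were higher in every stress library, are shown to set both directions side by side. Capitals mark any of 4 motifs on either strand: the CCAAT box (CCAAT), the GC box (GGGCGG), the E-box (CACGTG) and the nuclear receptor half-site (AGGTCA).
Fads2 (chr19:10101454-10101753, minus strand): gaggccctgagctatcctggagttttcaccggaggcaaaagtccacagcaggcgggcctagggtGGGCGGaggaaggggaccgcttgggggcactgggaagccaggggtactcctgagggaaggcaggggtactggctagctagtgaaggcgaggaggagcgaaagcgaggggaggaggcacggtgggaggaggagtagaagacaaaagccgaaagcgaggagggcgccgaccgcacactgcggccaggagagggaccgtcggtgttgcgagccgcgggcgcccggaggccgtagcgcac
Fads3 (chr19:10041298-10041597, plus strand): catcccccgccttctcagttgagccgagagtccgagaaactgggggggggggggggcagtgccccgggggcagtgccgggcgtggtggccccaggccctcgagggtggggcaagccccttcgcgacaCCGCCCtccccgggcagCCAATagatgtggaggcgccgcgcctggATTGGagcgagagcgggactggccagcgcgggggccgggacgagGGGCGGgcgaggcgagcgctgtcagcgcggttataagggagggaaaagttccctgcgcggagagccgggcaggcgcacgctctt
Elovl7 (chr13:108214154-108214453, plus strand): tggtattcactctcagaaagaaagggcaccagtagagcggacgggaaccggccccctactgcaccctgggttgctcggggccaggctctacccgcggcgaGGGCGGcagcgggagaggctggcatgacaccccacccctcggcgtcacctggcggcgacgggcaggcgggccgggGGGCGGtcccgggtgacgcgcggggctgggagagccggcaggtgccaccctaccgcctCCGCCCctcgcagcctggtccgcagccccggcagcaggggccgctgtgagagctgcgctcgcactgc
Elovl5 (chr9:77917115-77917414, plus strand): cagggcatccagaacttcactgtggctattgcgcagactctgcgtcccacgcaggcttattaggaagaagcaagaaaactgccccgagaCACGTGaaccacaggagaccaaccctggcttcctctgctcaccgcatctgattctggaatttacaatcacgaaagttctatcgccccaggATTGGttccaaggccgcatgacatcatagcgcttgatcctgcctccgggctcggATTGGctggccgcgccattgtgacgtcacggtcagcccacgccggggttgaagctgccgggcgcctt

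In the Fads2 window 1 GC box began 186 bases before the start, and none of the other 3 motifs was found. The Fads3 window held 2 CCAAT boxes, 106 and 78 bases before the start, and 2 GC boxes, 123 and 34 bases before it. Elovl7 had 3 GC boxes, 150, 75 and 17 bases before the start. Elovl5 had no GC box, but 2 CCAAT boxes, 71 and 17 bases before the start, and 1 E-box, 161 bases before it. No marked motif overlapped another in these 4 windows. Of 32851 RefSeq windows of this length, 37.4% held a CCAAT box, 35.7% a GC box, 7.15% an E-box and 16.3% a half-site. These matches describe the letters of the windows. The neighbouring Fads2 and Fads3 shared the GC box and differed in the CCAAT box.

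Per kilobase of exon, the 10 genes ranged from barely detected to abundant. Elovl5, the polyunsaturated chain elongase, was the most abundant at 137 ± 7.13 RPKM (CPM divided by the exon length in kilobases) in the controls, and Scd2 followed at 97.7 ± 7.09. These 2 genes together made up 75.02% to 78.2% of the summed per-length level of the 10 genes in each library. Elovl1 was next at 40.8 ± 2.27 in the controls. Elovl6 at 10.2 ± 0.432, Elovl7 at 9.73 ± 1.26 and Fads1 at 8.94 ± 0.368 formed a middle group on the per-length scale. Fads2 at 2.54 ± 0.880, Fads3 at 0.981 ± 0.156, Fa2h at 0.309 ± 0.196 and Scd1 at 0.230 ± 0.120 were the lowest in the controls. In the order of the mean over all 6 libraries, the per-length ranges of 3 of the 9 neighbouring pairs overlapped: Elovl7 with Elovl6, Fads2 with Fa2h, and Fa2h with Fads3. The ranges of the other 6 pairs did not.

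**Figure D1:**
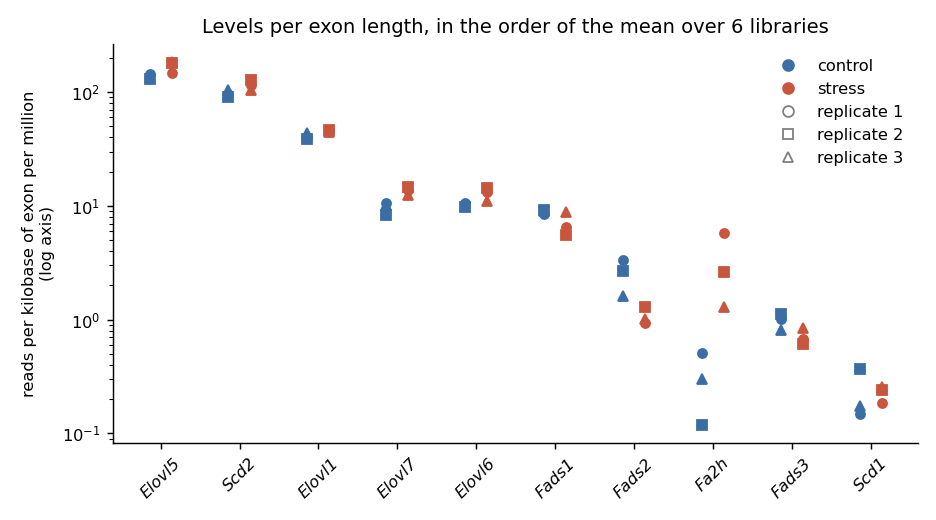
RPKM over exons in each of the 6 libraries (log axis; symbols mark replicates), with genes in the order of their mean over all libraries. Elovl5 and Scd2 sit at the top in every library, and Fa2h moves from 0.119 to 0.511 in the controls to 1.30 to 5.80 after prenatal stress.

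Both stearoyl-CoA desaturase genes lie next to Scd4 in the RefSeq gene order, yet they were used very unequally. Scd2 exceeded Scd1 on the per-length scale by 249-fold to 644.5-fold in the 6 libraries. Scd1 had only 46 to 106 reads per library, against 29444 to 40313 for Scd2. In GENCODE M21, 3.15% of the 75-base sequences of Scd1 transcripts and 1.78% of those of Scd2 occur in another gene, each other and Scd3 and Scd4 included. Since Scd2 reads were far more numerous, these shares do not say how many of the Scd1 reads came from Scd2, which was not tested. No other member except Elovl6 (2.05%) shares such a sequence with another gene.

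After prenatal stress Fa2h and Elovl7 were higher and Fads2 was lower, and the elongases and front-end desaturases lay on opposite sides. All 4 elongases had higher levels in every stress library than in any control. All 3 front-end desaturases had lower group means. An adjusted p below 0.05 was reached by 3 of the 10 genes, 2 higher and 1 lower, where 6.19% of the 16716 genes tested did so (4.34% higher and 1.85% lower; edgeR's quasi-likelihood test, Benjamini-Hochberg adjustment over all genes). Groups did not overlap in 6 members, 5 higher and 1 lower, against 30.6% of all genes tested (16.0% higher and 14.5% lower). Nothing is read from these shares, since the members were chosen with this contrast known. All 10 passed the filter on low counts. The median log2 fold change was 0.21 over the members and -0.0039 over all genes tested.

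**Figure D2:**
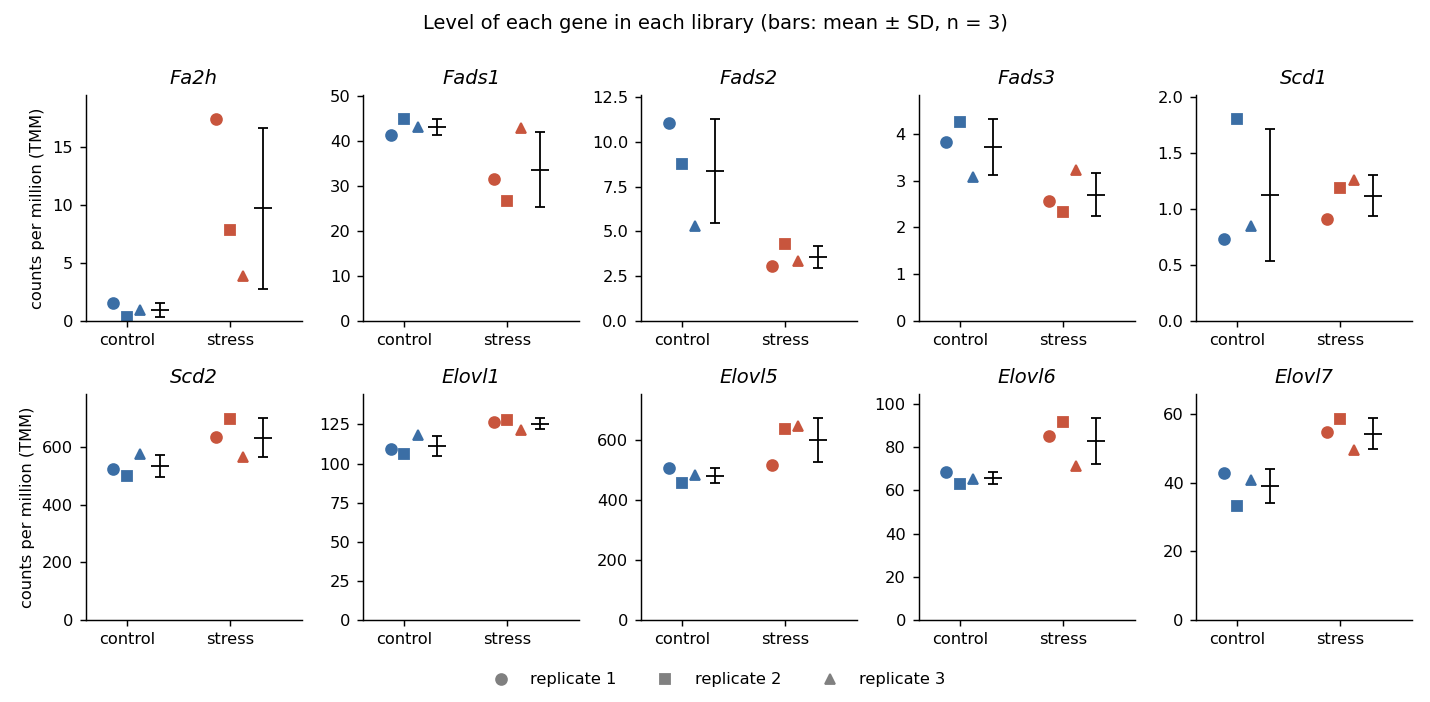
Level of each gene in CPM (vertical axes start at 0 and differ between panels) in control and stress libraries. Symbols mark replicates, and bars give mean ± SD (n = 3). The stress libraries lie above all controls in Fa2h, Elovl1, Elovl5, Elovl6 and Elovl7, and below them in Fads2.

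Fa2h, the fatty acid hydroxylase, had 118, 21 and 51 reads in control replicates 1, 2 and 3, and 880, 422 and 217 in stress replicates 1, 2 and 3. Its levels were 1.54, 0.357 and 0.898 CPM in the controls and 17.4, 7.83 and 3.90 CPM after stress. The lowest stress library was above the highest control, and both groups were wide. The log2 fold change was 3.34 ± 0.60 (SE; adjusted p = 0.0190 by edgeR's quasi-likelihood test). Within groups its log2 levels had an SD of 1.01 in the controls and 1.08 after stress, where the median gene had 0.10 and 0.14. Leaving out control replicate 2, control replicate 3 or stress replicate 2 ended the call of Fa2h, at adjusted p = 0.0878, 0.0684 and 0.0579. Stress replicate 1, where Fa2h was highest, also had the highest sum of 10 keratinocyte markers, 15.5 CPM against 1.73 to 2.84 in the other libraries. Without that library the log2 fold change of Fa2h was 2.62 (adjusted p = 0.0486, edgeR), and with the Y-to-Xist ratio as a covariate it was 2.48 (adjusted p = 0.0730). The macrophage covariate gave 2.46 (adjusted p = 0.0307), and leaving out control replicate 1 gave 3.95 (adjusted p = 0.0337, edgeR).

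FA2H is a myelin enzyme, and markers of Schwann cells were looked at beside it. The sum of 10 such markers was 461 to 605 CPM in the controls and 855 to 965 after stress. Pmp22 alone gave 425 to 567.5 CPM in the controls and 817 to 920 after stress (log2 fold change 0.75, adjusted p = 0.0114 by edgeR's quasi-likelihood test), and it is not confined to glia. Of the 8 markers tested it was the 1 called, and 0 were called lower. Mbp was at 23.7 to 25.0 CPM in the controls and 21.2 to 26.0 after stress. Mag was at 1.19 to 2.18 and 1.10 to 1.37, and Erbb3 at 6.64 to 7.14 and 6.24 to 7.79. Sox10, which glia and melanocytes share, was near the floor, at 0.442 to 0.911 CPM in the controls and 1.01 to 2.47 after stress. Melanocyte markers moved with it: the sum of 8 was 23.6 to 28.4 CPM in the controls and 37.1 to 80.3 after stress, and 5 of them rose (Dct, Pmel, Tyr, Tyrp1 and Mlana). Dct, a melanin synthesis gene, was at 10.4, 6.70 and 6.92 CPM in the controls and at 21.15, 36.3 and 13.9 after stress (log2 fold change 1.56 ± 0.32, adjusted p = 0.0286, edgeR), and Pmel was at 4.47 to 6.60 and 9.53 to 21.9. Sox10, Dct and Pmel were highest in stress replicate 2, while Fa2h was highest in stress replicate 1. Sebaceous gland markers summed to 300.0 to 340 CPM in the controls and 360 to 394 after stress, and most of that sum was Soat1, a cholesterol esterification gene that is not confined to sebocytes (240.4 to 278 and 304 to 332 CPM). Of the 6 sebaceous markers tested, 2 were called higher and 0 lower by edgeR's quasi-likelihood test, Soat1 (adjusted p = 0.0459) and Krt79 (adjusted p = 0.0323). Krt79 was at 0.781 to 1.275 CPM in the controls and 1.84 to 2.19 after stress. The sebaceous genes Awat2, Scd3 and Elovl3 were at most at 0.238 CPM, Mgst1 was at 2.08 to 3.47, and Awat1 was at 0 in every library. The keratinocyte genes Krt5 and Krt14 reached 2.70 and 1.01 CPM, both in stress replicate 1. The part of these cells in the level of Fa2h was not tested.

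The markers of the sort itself were abundant: Kit was at 1635 to 1923 CPM in the controls and 1889 to 2324 after stress, and Il1rl1, which encodes ST2, at 1329 to 1538 and 1768 to 2201. The macrophage genes Adgre1 and Fcgr1, which encode F4/80 and CD64, were at 380 to 438 and 71.7 to 83.2 CPM in the controls, and at 243 to 404 and 61.1 to 77.95 after stress. Other cell types gave small sums. Fibroblast markers summed to 78.9 to 103 CPM in the controls and 88.9 to 210.0 after stress, led by Col1a1 (26.1 to 35.6 and 28.0 to 70.4) and Col1a2 (21.9 to 32.9 and 24.7 to 62.3), both highest in stress replicate 2. Endothelial markers summed to 46.8 to 60.2 and 49.1 to 65.3 CPM, with Pecam1 at 26.4 to 31.7 and 28.6 to 36.8 and Cdh5 at 4.28 to 10.7 and 3.73 to 7.97. Adipocyte markers summed to 91.4 to 117 and 74.4 to 101 CPM, most of it Lpl (81.6 to 103 and 60.4 to 93.3). Adipoq and Plin1 stayed at or below 0.927 in every library. Granulocyte and basophil markers summed to 228 to 327 and 247 to 296 CPM, most of it Prss34 (165 to 195 and 161 to 212), with S100a8 and S100a9 at or below 7.92. Mcpt8 was at 15.7 to 18.6 and 22.2 to 25.8. Mpo was at 74.5 CPM in control replicate 2, against 4.48 to 23.4 in the other libraries. Lymphoid markers summed to 44.1 to 67.9 and 73.8 to 87.9 CPM without overlap, and that rise was carried by Il7r (18.1 to 26.1 and 48.8 to 58.1 CPM). T cell genes went the other way. Cd3e was at 0 in every stress library, and Cd3g was at 1.44 to 7.54 in the controls and 1.02 to 1.29 after stress. Trbc1 was at 1.00 to 8.93 in the controls and 0.216 to 0.482 after stress. Erythroid markers summed to 8.85 to 19.5 and 6.16 to 8.27 CPM, with Hba-a1 and Hba-a2 at or below 4.22.

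Fads2, which carries out the first desaturation of essential fatty acids, went the other way. The controls held 11.05, 8.79 and 5.30 CPM of it in replicates 1, 2 and 3, and the stress libraries 3.07, 4.27 and 3.33 CPM. No stress library reached the lowest control, and the controls were spread over a wider range than the stress libraries. Its mean fell by 1.24 ± 0.25 on the log2 scale, from 8.38 ± 2.90 to 3.56 ± 0.629 CPM (adjusted p = 0.0278 by edgeR's quasi-likelihood test). Leaving out control replicate 1 or 2 ended the call of Fads2 (adjusted p = 0.0689 and 0.115), as did leaving out stress replicate 1 or 2 (0.0856 and 0.0679). A covariate for the mean of the macrophage markers gave -1.47 (adjusted p = 0.0191), and one for the Y-to-Xist ratio -1.24 (adjusted p = 0.0922, edgeR).

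Fads1 and Fads3 lie on either side of Fads2 in the gene order. Fads1, which introduces the last double bond of arachidonic acid, was at 41.2, 44.75 and 43.1 CPM in the controls, which were close together. In the stress group it was at 31.5, 26.6 and 42.8 CPM in replicates 1, 2 and 3. Stress replicate 3 lay among the controls, and the macrophage marker sum was at the control level in the same library. The log2 fold change of Fads1 was -0.35 ± 0.15 (adjusted p = 0.179), against -0.57 without stress replicate 3 (adjusted p = 0.00248). The macrophage covariate gave -0.09 for Fads1 (adjusted p = 0.550), all by edgeR's quasi-likelihood test. Fads3, whose enzyme acts on sphingoid bases, was at 3.83, 4.25 and 3.08 CPM in the controls and at 2.56, 2.32 and 3.22 after stress. Its groups overlapped through stress replicate 3, with a log2 fold change of -0.46 ± 0.17 (adjusted p = 0.143), and -0.62 without that library (adjusted p = 0.0416, edgeR). The ratio of Fads1 to Fads3 on the per-length scale was 9.27 ± 1.52 in the controls and 9.73 ± 0.726 after stress. By contrast the ratio of Fads1 to Fads2 was 2.55, 3.49 and 5.56 in the controls and 7.01, 4.26 and 8.81 after stress, with overlap through stress replicate 2.

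The elongases were higher by smaller steps than Fa2h, and their replicates were tighter on the log2 scale than those of Fa2h and Fads2. Elovl7, an elongase of saturated chains, was at 42.95, 33.3 and 40.9 CPM in the controls and at 54.85, 58.5 and 49.6 after stress. Its log2 fold change was 0.48 ± 0.10 (adjusted p = 0.0313 by edgeR's quasi-likelihood test). The call of Elovl7 ended on leaving out control replicate 2 or 3 (adjusted p = 0.0925 and 0.0768) or stress replicate 1 or 2 (0.0818 and 0.120). It also ended with a covariate for macrophage markers (0.34, adjusted p = 0.0812) or for the Y-to-Xist ratio (0.50, adjusted p = 0.0869). Elovl6, which extends palmitate to stearate, was at 68.7, 63.2 and 65.1 CPM in the controls and at 85.4, 91.9 and 71.4 after stress. The lowest stress value, in replicate 3, was close above the controls (log2 fold change 0.34 ± 0.09, adjusted p = 0.0607), and without that library the value was 0.43 (adjusted p = 0.00245, edgeR).

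Elovl5 was at 507, 457 and 484 CPM in the controls and at 517, 638 and 648 in stress replicates 1, 2 and 3. Here stress replicate 1 was the one close to the controls, unlike in Elovl6. The log2 fold change was 0.32 ± 0.09 (adjusted p = 0.0772), and 0.41 without stress replicate 1 (adjusted p = 0.0316, edgeR). Elovl1, which makes very long saturated chains found in sphingolipids, was at 109, 106 and 118 CPM in the controls and at 127, 128 and 121 after stress. Its log2 fold change of 0.17 ± 0.06 (adjusted p = 0.115, edgeR) was the smallest of the 4. The summed per-length level of the 4 elongases was 198 ± 9.71 in the controls and 243 ± 19.85 after stress, with no overlap. That of the 3 front-end desaturases was 12.5 ± 0.950 and 8.77 ± 1.75, also with no overlap. The ratio of Elovl5 to Fads2, which work on the same polyunsaturated chains, was 42.9, 48.6 and 85.4 on the per-length scale in the controls, and 157.5, 139.9 and 182 after stress. These sums and ratios come from the contrast by which the genes were chosen and are descriptions.

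**Figure D3:**
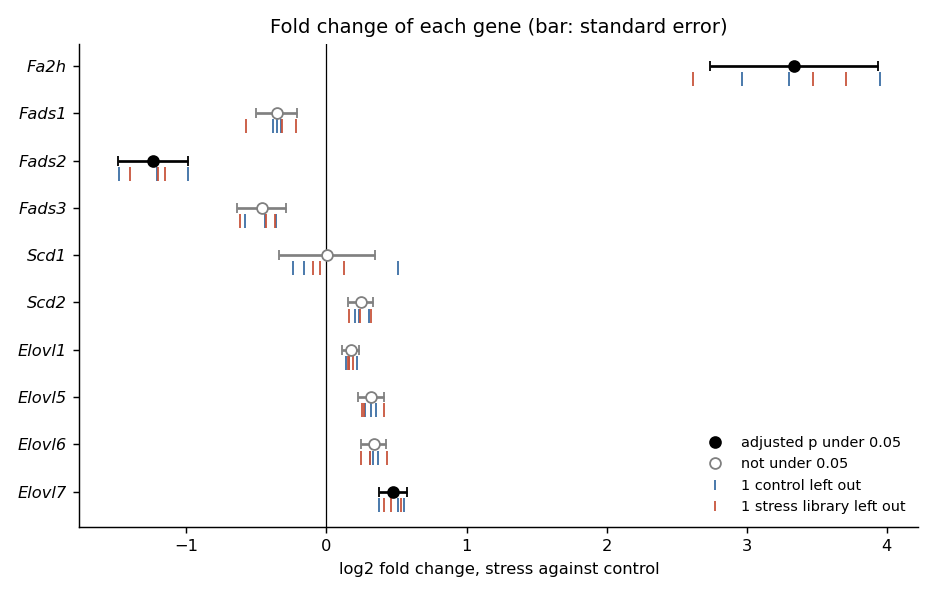
Log2 fold change of each gene, stress against control (circle, with its standard error), and the values with 1 library left out (ticks below). Filled circles have an adjusted p below 0.05. The elongases stay above 0 and the front-end desaturases below 0 in each of these fits, while Scd1 runs from -0.24 to 0.51.

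Neither stearoyl-CoA desaturase passed the test. Scd2 was at 525, 501 and 576.5 CPM in the controls and at 634, 699.5 and 566 after stress, where stress replicate 3 was below control replicate 3. Its log2 fold change was 0.25 ± 0.09 (adjusted p = 0.133), and 0.32 without stress replicate 3 (adjusted p = 0.0261, edgeR). Scd1 was at 0.729, 1.80 and 0.845 CPM in the controls and at 0.912, 1.19 and 1.26 after stress. Control replicate 2 was above all other libraries. The log2 fold change of Scd1 was 0.00 with an SE of 0.34 (adjusted p = 0.997, edgeR).

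By the root mean square distance between log2 CPM profiles, centred on the mean of the 6 libraries, the genes most like each called member were sought among 9500 protein-coding genes of at least 5 CPM. For Elovl7 they were Slc41a3, a magnesium transporter family gene (distance 0.022), Otulinl (0.027) and Cd200r3, a receptor gene of mast cells and basophils (0.0295). Slc41a3, for example, was at 107, 80.8 and 100.4 CPM in the controls and at 138, 141 and 121.5 after stress. For Fads2 they were Sox4, a transcription factor of immature cells (0.19), Treml2 (0.30) and Scin, an actin-severing protein gene (0.32). Sox4 was at 20.1, 17.8 and 12.0 CPM in the controls and at 7.45, 7.10 and 7.34 after stress. Its controls had the same order as those of Fads2, and its stress libraries the reverse order. For Fa2h the nearest were Ctsj, a cathepsin gene (0.60), and the Mas-related receptor genes Mrgprx2 (0.76) and Mrgprb1 (0.79), none of them close. In all 3 the highest library was stress replicate 2, whereas Fa2h was highest in stress replicate 1. All these genes were picked for closeness over 6 libraries that hold the contrast by which the members were chosen. The likeness is therefore a description.

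The wider pathway was described with 148 other genes in 11 lists, of which 134 were tested. In all, 9 rose, 3 fell and 122 did not pass (edgeR's quasi-likelihood test), where 4.34% and 1.85% of all genes did. An unadjusted p under 0.05 was reached by 46 of the 134, and by 4150 of all 16716 genes tested. DESeq2 called 24 of them, and 1989 over all genes. The median log2 fold change was 0.02. With the macrophage covariate 5 of these 12 calls held, among them Acer2, Galc, Mboat7 and Abcd3, and with the Y-to-Xist covariate 3 (Acer2, Galc and Acsl4). With library totals as the scaling, Kdsr (adjusted p = 0.0774) and Rxra (0.0502) did not pass. Groups did not overlap in 27 genes that were higher and 19 that were lower, where 16.0% and 14.5% of all genes did. Among other desaturases and elongases 0 of 3 tested genes passed with edgeR, and Degs1, the ceramide-forming desaturase and the most expressed per length of them, had 122.9 ± 6.62 and 144 ± 11.4 CPM in control and stress libraries (adjusted p = 0.0911 with edgeR and 0.0376 with DESeq2). Fads6 and Scd4 were the other 2. Their log2 fold changes were 0.11 ± 0.08 (adjusted p = 0.424) and -0.61 ± 0.39 (adjusted p = 0.366, both with edgeR). Scd3, Elovl2, Elovl3, Elovl4 and Degs2 had at most 18 reads in any library and were not tested. The 6 tested enzymes that complete the elongation cycle did not pass with edgeR, though 3 had an unadjusted p under 0.05 and DESeq2 called 2. Hsd17b12, its ketoacyl reductase, was at 129 ± 7.06 and 149.7 ± 4.16 CPM (adjusted p = 0.0642 with edgeR and 0.0160 with DESeq2). The other gene called by DESeq2 was Hacd1, a dehydratase of the cycle, named after its value was seen. None of the 5 tested genes of the cytochrome b5 chain, which hands electrons to the desaturases, passed with edgeR or DESeq2 (0 at an unadjusted p under 0.05), and its most expressed gene per length, Cyb5b, was at 147.7 ± 7.196 and 154.9 ± 1.71 CPM. None of the 10 genes of fatty acid synthesis passed with either tool (1 at an unadjusted p under 0.05), where Acly, the supplier of cytosolic acetyl-CoA, was at 380 ± 13.0 and 389 ± 9.88 CPM.

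Of the 11 lists, that of sphingolipid genes held the largest number of edgeR calls. Of 18 tested genes of sphingolipid synthesis and breakdown, 4 rose and 14 did not pass, where 4.34% of all genes rose. The median log2 fold change was 0.16. In 10 of the 18 every stress library was above every control, and in 0 below, where 16.0% and 14.5% of all genes were. Acer2, an alkaline ceramidase that breaks ceramide down, rose by 0.79 ± 0.11 on the log2 scale, from 63.7 ± 9.88 to 110.1 ± 10.3 CPM (adjusted p = 0.00970). Its call held in each fit that left out 1 library and under each other alternative. Galc, which removes galactose from galactosylceramide, a lipid in which myelin carries hydroxylated fatty acids, rose from 380 ± 23.4 to 514 ± 24.5 CPM (0.44 ± 0.07, adjusted p = 0.0127). The call of Galc ended only without stress replicate 2 (adjusted p = 0.0551). Kdsr, an early enzyme of sphingoid base synthesis named after its value was seen, rose by 0.35 ± 0.08 on the log2 scale (adjusted p = 0.0424). Its call held in 1 of the 6 fits with a library left out, that without stress replicate 3. Asah1, the lysosomal acid ceramidase gene and the most expressed per length of the list, was at 282.5 ± 11.8 and 267 ± 29.8 CPM (adjusted p = 0.593). Ugt8a, which makes galactosylceramide, had at most 15 reads in any library and was not tested. The tests of these genes are edgeR's quasi-likelihood test.

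In the list of SREBP, LXR and PPAR regulators 2 of 15 genes rose and 13 did not pass, where 4.34% of all genes rose. An unadjusted p under 0.05 was reached by 10 of the 15, and by 4150 of all 16716 genes tested. Groups did not overlap in 4 that were higher and 5 that were lower, against 16.0% and 14.5% of all genes tested. Chosen after their values were seen, Nr1h3, which encodes an LXR, was at 4.81 ± 0.993 and 3.13 ± 0.675 CPM (-0.62 ± 0.19, adjusted p = 0.0927), and Ppard at 20.2 ± 0.777 and 16.1 ± 1.60 (-0.32 ± 0.08, adjusted p = 0.0574). DESeq2 called both. Srebf2, the transcription factor of cholesterol synthesis, rose from 216 ± 18.0 to 272 ± 12.85 CPM (0.33 ± 0.07, adjusted p = 0.0367), and Rxra, the partner of nuclear receptors, from 260 ± 17.5 to 324.5 ± 18.2 CPM (0.32 ± 0.07, adjusted p = 0.0359). Both calls ended in each fit that left out 1 library other than stress replicate 3 (adjusted p up to 0.136). None of the 19 genes of cholesterol synthesis and uptake passed with edgeR, where 4 had an unadjusted p under 0.05 and DESeq2 called 1 (Sqle, named after its value was seen), and their median log2 fold change was 0.05. Stard4, the most expressed per length of them, was at 268 ± 16.7 and 305 ± 19.8 CPM (adjusted p = 0.152). Of 5 LXR target genes 1 fell, where 1.85% of all genes did. That gene was the sterol exporter gene Abcg1, which went from 18.8 ± 1.805 to 13.8 ± 0.528 CPM (-0.45 ± 0.08, adjusted p = 0.0224). An unadjusted p under 0.05 was reached by 4 of the 5, and DESeq2 called 3 (Abcg1, Apoe and Lpcat3). Groups did not overlap in 1 that was higher and 2 that were lower. Named after their values were seen, Lpcat3 had a log2 fold change of 0.24 ± 0.06 and Abca1 of -0.61 ± 0.18. Abcg1 lost its call on leaving out replicate 1 or 2 of either group (adjusted p up to 0.0873), and the macrophage covariate gave -0.43 (adjusted p = 0.0557). Apoe, abundant in macrophages, was at 1605 ± 241 and 1216 ± 212 CPM (adjusted p = 0.125 with edgeR and 0.0301 with DESeq2). Where DESeq2 is not named, these values too are from edgeR's quasi-likelihood test.

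Over all genes tested, 4.34% rose and 1.85% fell, and the counts of the next lists stand beside these shares. Among 13 tested genes of fatty acid activation, binding and uptake, 1 rose, 1 fell and 11 did not pass. Acsl4, which activates arachidonic acid for storage in phospholipids, rose from 124 ± 7.53 to 162 ± 13.2 CPM (0.39 ± 0.07, adjusted p = 0.0224). The call of Acsl4 ended without control replicate 2 or 3 or stress replicate 2 (adjusted p up to 0.101). Fabp5, a fatty acid binding protein gene, fell from 43.3 ± 1.86 to 34.8 ± 2.17 CPM (-0.32 ± 0.07, adjusted p = 0.0300), a call kept only without stress replicate 3 among the fits with a library left out (otherwise up to 0.102). Dbi, the acyl-CoA binding protein gene and the most expressed per length of the list, was at 83.55 ± 1.64 and 86.5 ± 5.97 CPM (adjusted p = 0.663). Of 15 genes of phospholipid remodelling 1 rose, 1 fell and 13 did not pass. Mboat7, which puts arachidonic acid into phosphatidylinositol, rose from 117 ± 13.8 to 174 ± 12.3 CPM (0.58 ± 0.09, adjusted p = 0.0138), and its call ended only without stress replicate 2 among those fits (adjusted p = 0.0614). Pla2g15, a lysosomal phospholipase gene, fell by 0.46 ± 0.10 on the log2 scale, from 48.0 ± 3.31 to 35.0 ± 5.20 CPM (adjusted p = 0.0392). The macrophage covariate gave -0.27 for Pla2g15 (adjusted p = 0.0566), and leaving out any 1 library other than stress replicate 3 ended its call (adjusted p up to 0.154). Lpcat2, a lysophospholipid acyltransferase gene and the most expressed per length of these, was at 84.8 ± 4.88 and 85.2 ± 3.43 CPM (adjusted p = 0.967). Of 25 genes of fatty acid oxidation 1 rose and 24 did not pass. The gene was Abcd3, a peroxisomal transporter of fatty acids, at 107 ± 13.0 and 158.5 ± 17.3 CPM (0.57 ± 0.10, adjusted p = 0.0202). The call of Abcd3 ended without control replicate 2 or 3 or stress replicate 1 or 2 (adjusted p up to 0.0759). Acadl, an acyl-CoA dehydrogenase gene with the highest level per length among them, was at 83.6 ± 5.15 and 95.1 ± 6.42 CPM (adjusted p = 0.142). All p-values here are from edgeR's quasi-likelihood test.

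**Figure D4:**
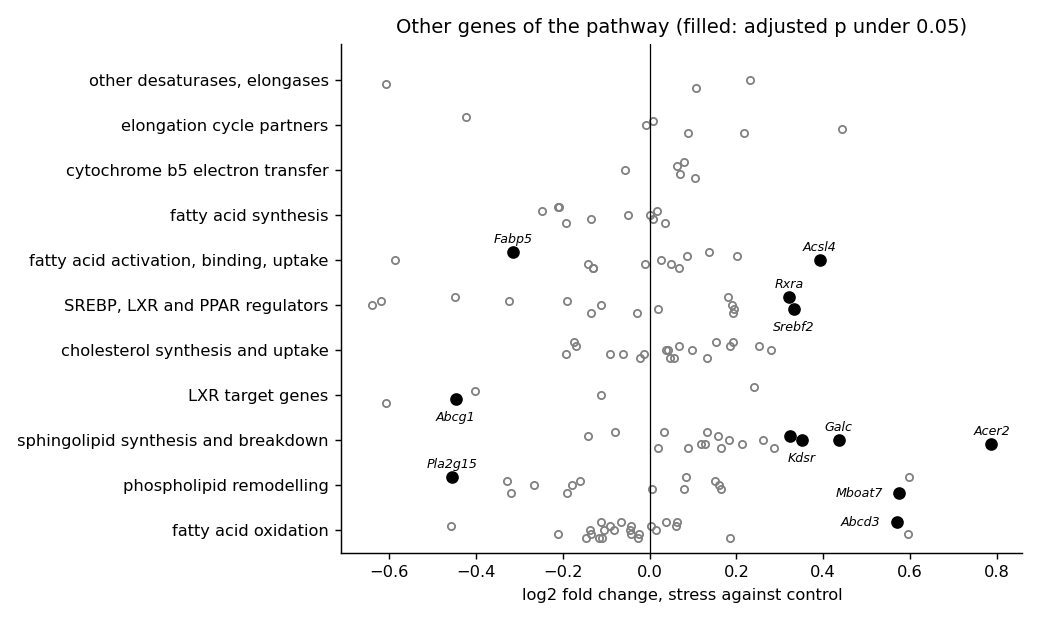
Log2 fold change, stress against control, of each of 134 tested genes of the wider pathway, by list (vertical position within a list has no meaning). Filled points passed an adjusted p of 0.05, and those described in the text are named: 9 lie above 0 and 3 below, with 4 of the 9 among sphingolipid genes.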

How the data were processed

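Mast cell RNA of 6 pools (3 control, 3 prenatal stress) was analysed from the raw read counts per gene that the authors deposited, 1 table per library. FastQC, STAR 2.4, HTSeq 0.9.1 and the builds GRCm39 and mm10 are named in the submitters' processing notes, with no role given; the strand setting is not given in the sources used here. Of reads tallied, 79.7% to 81.4% were assigned to genes; 5 rows naming no gene (unassigned, ambiguous or multiply aligned reads) were left out. Genes were filtered with filterByExpr (minimum count 10), leaving 16716, scaled by TMM and tested with edgeR 4.0.16 (glmQLFit, glmQLFTest; R 4.3.3) at an adjusted p of 0.05 without covariates. The SE is the log2 fold change divided by the square root of F. Exon lengths, overlaps and shared sequences are from GENCODE M21 (90.6% of rows matched once). The members and lists were chosen with earlier results of these data known. Beside all members, each list's called genes (up to 3, by p) and its most expressed gene per length are named, with the first 2 markers of each cell type and any at 0 throughout. Markers beyond this rule were named after their values were seen. The alternatives were RLE factors (DESeq2's), library totals, no filter, a stricter filter, DESeq2 1.42.0, limma-voom (limma 3.58.1), a replicate block, macrophage and Y-to-Xist covariates, and each library left out. The test was tried on simulated counts. Of the genes this rule names, 1 called gene and 1 marker are not reported here.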

Additional observations from a re-analysis of the deposited data

How the results depend on the processing

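Directions held in all alternatives for the front-end desaturases, elongases, Scd2 and Fa2h; Scd1, never called, changed sign. Over all genes 1035 were called. The count was 2085 with library totals, 1933 with no filter, 1989 with DESeq2, 553 with the macrophage covariate and 410 with the Y-to-Xist covariate. The wider pathway count of 12 was 26 with library totals, 26 with no filter, 24 with DESeq2, 5 with the macrophage covariate and 3 with the Y-to-Xist covariate. Of the members, 6 were called with no filter, 5 with DESeq2 and 1, Elovl5, with the Y-to-Xist covariate; the cause was not tested. Leaving out 1 library gave 196 (without stress replicate 2) to 2647 (without stress replicate 3) genes, 0 (without control replicate 2 or stress replicate 2) to 7 members (without stress replicate 3) and 1 to 32 pathway genes, again without stress replicates 2 and 3. With limma-voom Fa2h did not pass (adjusted p = 0.0510). Library totals put the median of all genes at -0.12 (log2) and 26.5% of calls higher, against 70.05% with TMM. Replicates with the same number correlated at -0.02 to 0.10 and 1 of 3 controls was closest to its own number. The replicate block gave 622 genes, 6 pathway genes and 2 members, Elovl7 losing its call (adjusted p = 0.0533). Using the longest transcript as length left 4 overlapping pairs of neighbours in place of 3. Scd1 had 46 to 106 reads per library and an SE of 0.34, against a median SE of 0.109 over all genes; how much of this is depth was not tested.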
